A study of Rattus norvegicus with 93 samples.

Results

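The collagen genes of the rat were described in the rostromedial tegmental nucleus (RMTg), a brainstem nucleus of mostly GABA neurons that inhibit the dopamine cells of the midbrain. Members were all rows of the expression table whose symbol is Col, a number, a and a number, which gave 44 collagen genes of 38354 rows. They were grouped by the kind of assembly their chains form into 11 fibrillar collagens, 8 basement membrane collagens (6 of type IV and 2 multiplexins) and 25 others. The samples are polyadenylated RNA of the RMTg of outbred laboratory rats, 93 samples in 1 group, of which 92 have a column. The labels give no treatment, genotype, sex, age or behaviour and mark the extraction as unknown, so every comparison below is between animals of 1 group. Members were described in the 49 libraries in which Nif3l1 took under 20% and LOC120093067 plus Zfp532 under 10% of the counts. Nothing beyond the sample names says how the samples were kept apart, and p-values therefore measure only the spread between these samples, part of which may be technical.

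Collagens are extracellular matrix proteins built of chains wound around each other as a triple helix, and a trimer holds either identical chains or products of different genes. Fibrillar collagens such as types I, II and III form the fibres of connective tissue. Type IV collagen forms the sheet-like network of basement membranes, which in the brain surround blood vessels and underlie the pia. Other collagens sit on fibril surfaces (the FACIT group), form beaded filaments (type VI) or span the cell membrane. Brain parenchyma holds little fibrous collagen, and in brain the fibroblasts of vessel walls and meninges are the known makers of types I and III.

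Several chains of type IV collagen lie head to head in the genome, so that a single stretch of DNA holds the start region of both genes. From the positions in the table, 76 bases lie between the starts of Col4a1 and Col4a2 on chromosome 16, 412 between those of Col4a3 and Col4a4 on chromosome 9 and 1263 between those of Col4a5 and Col4a6 on the X chromosome. The sequences are from the RefSeq promoter table (build GRCr8), and the positions of all 44 members in the expression table equal a gene end in the RefSeq gene table of that build. Capitals mark the motifs searched on both strands, the CCAAT box (CCAAT), the GC box (GGGCGG, or CCGCCC where it lies on the other strand) and the TATA box (TATAAA), which do not overlap each other here. The stretch between Col4a1 and Col4a2 (chr16:84885521-84885596, plus strand) is shown because both genes start at its ends, the 250 bases before Col4a3 (chr9:91323740-91323989, plus strand) because that gene too has a close partner, those before Col1a2 (chr4:33518307-33518556, plus strand) as a fibrous collagen and those before Col24a1 (chr2:236872333-236872582, plus strand) for the slope described further on.
Col4a1-Col4a2: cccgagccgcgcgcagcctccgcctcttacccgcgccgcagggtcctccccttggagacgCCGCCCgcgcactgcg
Col4a3: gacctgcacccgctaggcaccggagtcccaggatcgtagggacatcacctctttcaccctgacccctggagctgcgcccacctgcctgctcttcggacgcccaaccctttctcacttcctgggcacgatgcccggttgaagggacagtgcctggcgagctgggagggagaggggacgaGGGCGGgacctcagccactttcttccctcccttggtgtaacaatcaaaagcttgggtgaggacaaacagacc
Col1a2: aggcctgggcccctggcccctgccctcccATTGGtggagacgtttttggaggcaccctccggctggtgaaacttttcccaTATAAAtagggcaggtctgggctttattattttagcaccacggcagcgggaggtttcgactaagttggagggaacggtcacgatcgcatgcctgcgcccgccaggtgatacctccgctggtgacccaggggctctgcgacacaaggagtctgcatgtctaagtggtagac
Col24a1: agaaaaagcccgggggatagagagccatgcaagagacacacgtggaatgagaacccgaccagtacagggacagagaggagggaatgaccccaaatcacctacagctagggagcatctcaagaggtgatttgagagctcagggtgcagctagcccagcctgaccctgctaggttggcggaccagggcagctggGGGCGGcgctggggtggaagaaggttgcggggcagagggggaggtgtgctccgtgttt
The stretch between Col4a1 and Col4a2 held 1 GC box, as did the windows of Col4a3 and Col24a1, while that of Col1a2 held 1 CCAAT box and 1 TATA box. A promoter entry at the table's start was found for 20 of 44 members. Of these 20, 7 held a CCAAT box, 9 a GC box and 4 a TATA box in the 250 bases before the start, against 34.02%, 30.5% and 12.9% of 33469 promoters of the same length. A match is only an occurrence of these letters.

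The 49 libraries held 9.55 to 50.2 M estimated counts (M, 1000000 counts; median 19.2 M), so that 1 CPM (count per 1000000) stands for 9.55 to 50.2 counts. Nif3l1 took at most 0.00166% and the LOC120093067 and Zfp532 pair at most 5.50% of the counts in them, while the pair took at least 19.8% in 32 other libraries and Nif3l1 at least 28.8% in 11, so the limits fell into wide gaps. All 10 markers of inhibitory RMTg neurons passed the filter, summing to 714 to 1195 CPM. Summed CPM of the lists was 237 to 404 for endothelial cells (15 of 15 genes past the filter), 63.2 to 143 for mural cells (13 of 14), 25.9 to 50.5 for fibroblasts (10 of 12), 3.20 to 9.75 for choroid plexus (2 of 6) and 4.18 to 10.9 for ependyma (3 of 5). Sample identifiers fall into number runs, called series B to F here, with 7, 16, 12, 7 and 7 of the 49 libraries. The labels do not say what sets the runs apart. No pair of libraries held identical values.

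All 44 collagen genes were above 3 counts in at least 1 of the 49 libraries, and 35 passed the filter of at least 1 CPM in at least 10 libraries. These were all 11 fibrillar, all 8 basement membrane and 16 of the 25 other collagens. Col6a3, a chain of type VI, was the member just inside the filter, with at least 1 CPM in 19 libraries, and Col22a1 the one just outside, with 7. The 9 members that did not pass were Col6a4, Col6a5, Col6a6, Col8a2, Col10a1, Col17a1, Col22a1, Col26a1 and Col28a1. Their mean levels were at most 0.60 CPM, and Col6a5 was at 0 in 34 of 49 libraries. Summed levels were 187.52 ± 52.3 CPM for the fibrillar class (SD, n = 49; range 111.2 to 459), 58.9 ± 12.1 CPM for the basement membrane class (30.9 to 118) and 187.1 ± 38.2 CPM for the others (119 to 386). Values are not divided by transcript length, so levels of different genes or classes are not ranked.

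**Figure D1:**
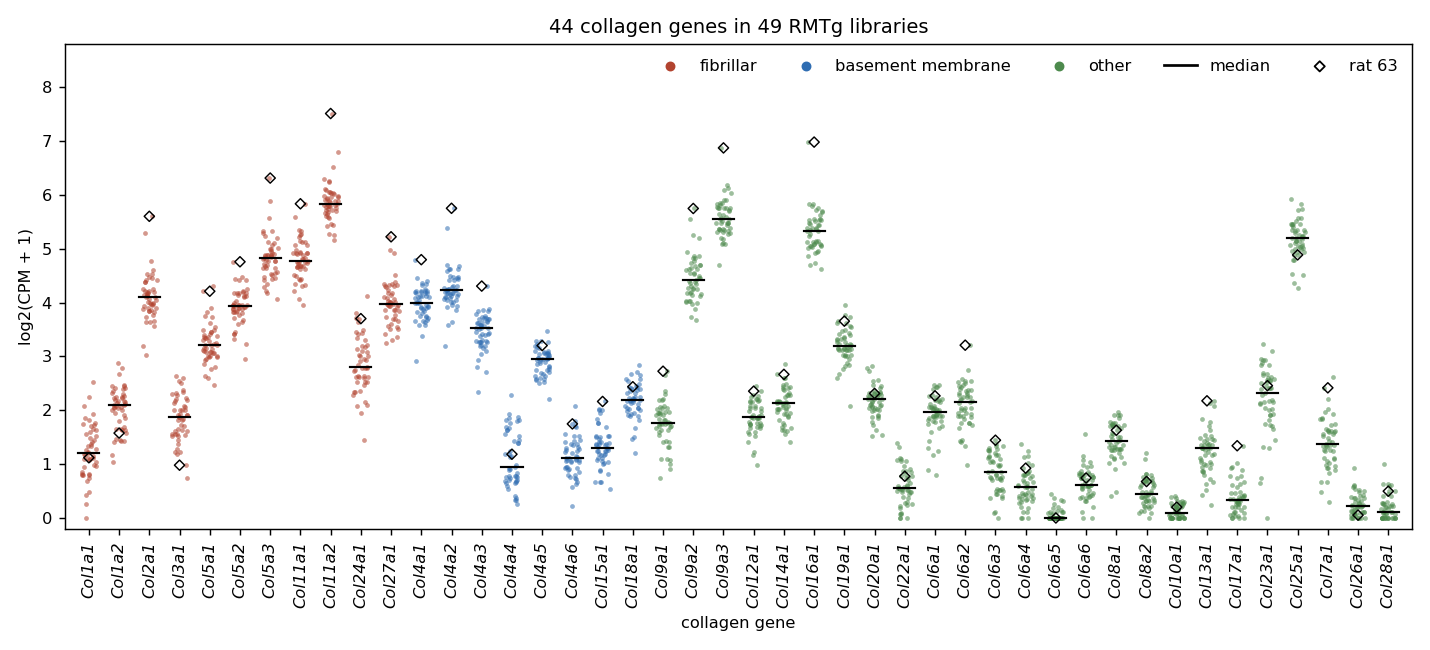
Level of each of the 44 collagen genes, as log2(CPM + 1), in the 49 libraries. Points are libraries coloured by class, bars are medians and open diamonds are the library of rat 63, which lies above the other points for Col11a2 (181 CPM) and Col16a1 (125 CPM) and near the bottom for Col3a1 (0.97 CPM). Levels are not per length and do not compare genes with each other.

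Among the fibrillar collagens, Col1a1 and Col1a2, the chains of type I, had levels of 1.52 ± 0.91 CPM (SD, n = 49; lowest 0, median 1.32, highest 4.73) and 3.23 ± 1.14 CPM (lowest 1.047, median 3.27, highest 6.39). Col3a1, the only chain of type III, was at 2.75 ± 1.08 CPM (0.67, 2.65 and 5.21). A median of 26.7, 60 and 50 counts stood behind the values of these 3 genes. Col2a1, the chain of type II and best known from cartilage, was at 17.1 ± 6.63 CPM (7.11, 16.2 and 47.5). Col11a1 and Col11a2, chains of type XI that join type II fibrils in cartilage, were at 27.9 ± 7.77 CPM (14.6, 26.2 and 56.02) and 60.2 ± 21.96 CPM (34.7, 55.8 and 181). The chains of type V, which take part in starting fibrils, were at 8.82 ± 2.79 CPM for Col5a1 (4.54 to 18.9), 14.6 ± 3.54 CPM for Col5a2 (6.78 to 26.03) and 28.9 ± 10.6 CPM for Col5a3 (15.7 to 78.4). The minor fibrillar chains Col24a1 and Col27a1 were at 6.78 ± 2.94 CPM (1.71 to 16.4) and 15.7 ± 5.33 CPM (8.49 to 36.3). Of the 11 fibrillar genes, Col1a1 alone was at 0 in a library, and that was 1 library.

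Type IV chains were detected in every library. Col4a1 and Col4a2, whose products form the trimer of most basement membranes, were at 15.2 ± 3.39 CPM (SD, n = 49; lowest 6.55, median 14.9, highest 26.8) and 18.99 ± 6.86 CPM (8.15, 17.7 and 52.8). Col4a3, known from the kidney's filtration membrane, was at 10.2 ± 2.50 CPM (4.05, 10.5 and 18.8), and its neighbour Col4a4 at 1.29 ± 0.86 CPM (0.19, 0.94 and 3.88), with a median of 19 counts. The X-linked chains Col4a5 and Col4a6 were at 6.63 ± 1.28 CPM (3.64 to 10.1) and 1.28 ± 0.58 CPM (0.17 to 3.20). The multiplexins, collagens of basement membranes that carry sugar chains, were at 1.58 ± 0.69 CPM for Col15a1 (0.45 to 3.48) and 3.66 ± 0.99 CPM for Col18a1 (1.31 to 6.19), the source of endostatin.

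Of the other collagens, Col9a2 and Col9a3, type IX chains that coat type II fibrils in cartilage, were at 22.1 ± 7.88 CPM (SD, n = 49; 11.7 to 52.7) and 48.3 ± 14.02 CPM (24.8 to 116). The remaining type IX chain, Col9a1, was at 2.52 ± 1.0 CPM (0.67 to 5.61). The FACIT group member Col16a1 was at 40.8 ± 14.9 CPM (23.7 to 125). Col25a1, a collagen of the neuronal membrane whose shed part was found in amyloid plaques, was at 36.2 ± 8.71 CPM (lowest 18.3, median 35.7, highest 59.9). Its membrane-spanning relatives Col13a1 and Col23a1 were at 1.44 ± 0.72 CPM (0.18 to 3.52) and 3.98 ± 1.82 CPM (0 to 8.33), and Col23a1 was at 0 in 1 library. The type VI chains Col6a1, Col6a2 and Col6a3 were at 2.89 ± 0.88, 3.46 ± 1.24 and 0.85 ± 0.45 CPM, and Col7a1, the anchoring fibril collagen of skin, at 1.78 ± 0.95 CPM.

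Collagen genes varied more between libraries than most genes of like level. After the trend of SD on mean level was removed, the median member stood at percentile 77.4 of all 18749 tested genes, with 10 of 35 members above the 90th and 1 below the 10th. Col23a1 stood at percentile 97.3 and Col24a1 at percentile 94.8. Of those above the 90th, Col2a1, Col5a3, Col11a2, Col27a1, Col9a2 and Col16a1 had their highest value in rat 63. Col1a1, Col4a4, Col23a1 and Col24a1 had it in other libraries. The percentiles were not computed without rat 63. Col4a5 was the member below the 10th, at percentile 7.64. The highest library of Col4a5 was 2.78 times the lowest, against 9.59 times for Col24a1. No member had libraries parted into separate levels: the widest gap between neighbouring libraries with at least 5 on each side was 0.22 log2 units, for Col6a2.

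The library of rat 63, of series C with 26.7 M counts, stood apart for collagens. It held the highest value of 17 of the 35 members, while it held the highest value of 12.7% of all tested genes, and no other library was highest for more than 2 members. The sums of all 3 classes were highest there. In that library 31 of 35 members were above the median of the others, against 52.7% of all tested genes, and 11 were higher by over 1 log2 unit, against 2.11%. The median difference was 0.81 log2 units over the members and 0.04 over all tested genes.

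The largest differences in the library of rat 63 were in the fibrillar Col11a2, at 181 CPM against a median of 55.8 CPM in the others (1.68 log2 units), Col16a1 at 125 against 39.3 CPM (1.65), Col4a2 at 52.8 against 17.6 CPM (1.53) and Col2a1 at 47.5 against 16.01 CPM (1.51). The type I and type III chains were on the other side. Col3a1 was at 0.97 against 2.70 CPM (-0.91), Col1a2 at 1.98 against 3.28 CPM (-0.52) and Col1a1 at 1.17 against 1.32 CPM (-0.10). The neuronal Col25a1 was also lower, at 28.5 against 35.8 CPM (-0.32). The same library had the lowest astrocyte marker score of the 49, at -2.76 SD, a mural score of -1.40 SD and a fibroblast score of -1.45 SD. Their part in the collagen values was not tested. Correlations and slopes that rest on this 1 library are given with and without it, while the spread above was computed only with it.

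The library of rat 62, also of series C with 17.5 M counts, held the lowest value of 10 of the 35 members and of 19.4% of all tested genes. In it 27 of 35 members were below the median of the others, against 65.9% of all tested genes, with a median difference of -0.51 log2 units over the members and -0.21 over all tested genes. Its endothelial score was -2.54 SD, its mural score -2.37 SD and its astrocyte score 1.91 SD. Slopes were therefore also fitted without this library, an alternative chosen after seeing the data. The library of rat 48, also of series C and with a corrected identifier, held the lowest value of 7 of the 35 members, against 1.18% of all tested genes.

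**Figure D2:**
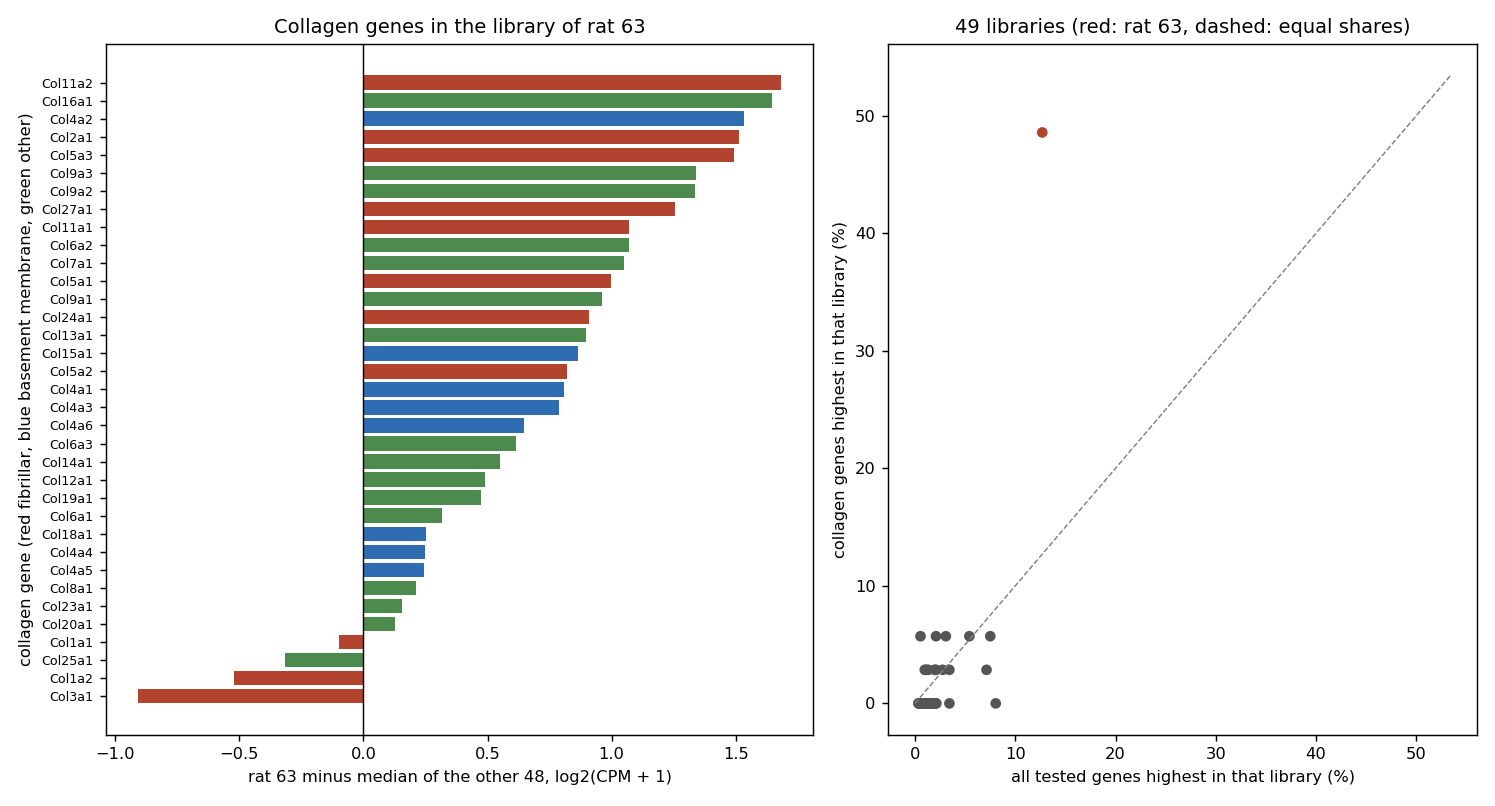
Left, log2(CPM + 1) of the 35 collagen genes past the filter in the library of rat 63 minus the median of the other libraries, with bars coloured by class; Col11a2 is at 1.68 and Col3a1 at -0.91. Right, for each of the 49 libraries, the percent of collagen genes against the percent of all tested genes that had their highest value there, with rat 63 in red at 48.6% against 12.7% and the dashed line marking equal shares.

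Most collagen genes were positively correlated with each other, while the type I and III chains were near 0 with the rest. This was not particular to them, as Col4a4 was near 0 and Col25a1 below 0 with most members. Over the 595 pairs of the 35 members the median Pearson r across the 49 libraries was 0.20, and 491 pairs were positive. With rat 63 left out the median was 0.15. An r over 0.5 was found for 60 pairs, and for 35 without rat 63. Of the pairs within a class, 14 of 55 fibrillar pairs, 1 of 28 basement membrane pairs and 6 of 120 other pairs were over 0.5, and 8, 1 and 2 without rat 63. The highest r joined chains of different types: 0.87 for Col9a2 with Col11a2, 0.85 for Col16a1 with Col11a2 and 0.80 for Col4a2 with Col11a2 (0.85, 0.76 and 0.70 without rat 63). Pairs of genes outside the family were not taken for comparison. All genes of a library share its depth and composition, so these r are a description.

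Col1a1, Col1a2 and Col3a1 had a median r of -0.04, 0.04 and -0.08 with the other 32 members. Such medians were not taken for single members among those 32. The highest r any of them had with those 32 was 0.31, between Col1a2 and Col4a1. The principal components of all genes outside the collagen family were used to describe this further, a measure chosen after seeing the data. On the second component (14.5% of the variance), 23 of 35 members rose and 1 fell at an adjusted p under 0.05 (limma), where 31.7% of all genes rose and 13.5% fell. Col4a2 rose by 0.32 ± 0.03 log2 units per SD (SE), Col7a1 by 0.33 ± 0.05 and Col11a2 by 0.24 ± 0.04. Col25a1 was the member that fell, with a slope of -0.13 ± 0.05.

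Values for Col1a2, Col1a1 and Col3a1 on this component were 0.03 ± 0.06, -0.09 ± 0.07 and -0.12 ± 0.06, none past the threshold. The direction of the component is arbitrary. The library of rat 63 lay highest on it, at 3.79 SD, and without that library 19 members rose and 1 fell, where 32.7% and 8.43% of all genes did. The library of rat 62 lay at -3.67 SD, and without it 18 members rose and 1 fell, where 22% and 13.1% of all genes did. The component had an r of -0.03 with the log10 library total. On the first component (17.5% of the variance) 0 members rose and 3 fell, where 29.5% and 23.8% of all genes did.

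**Figure D3:**
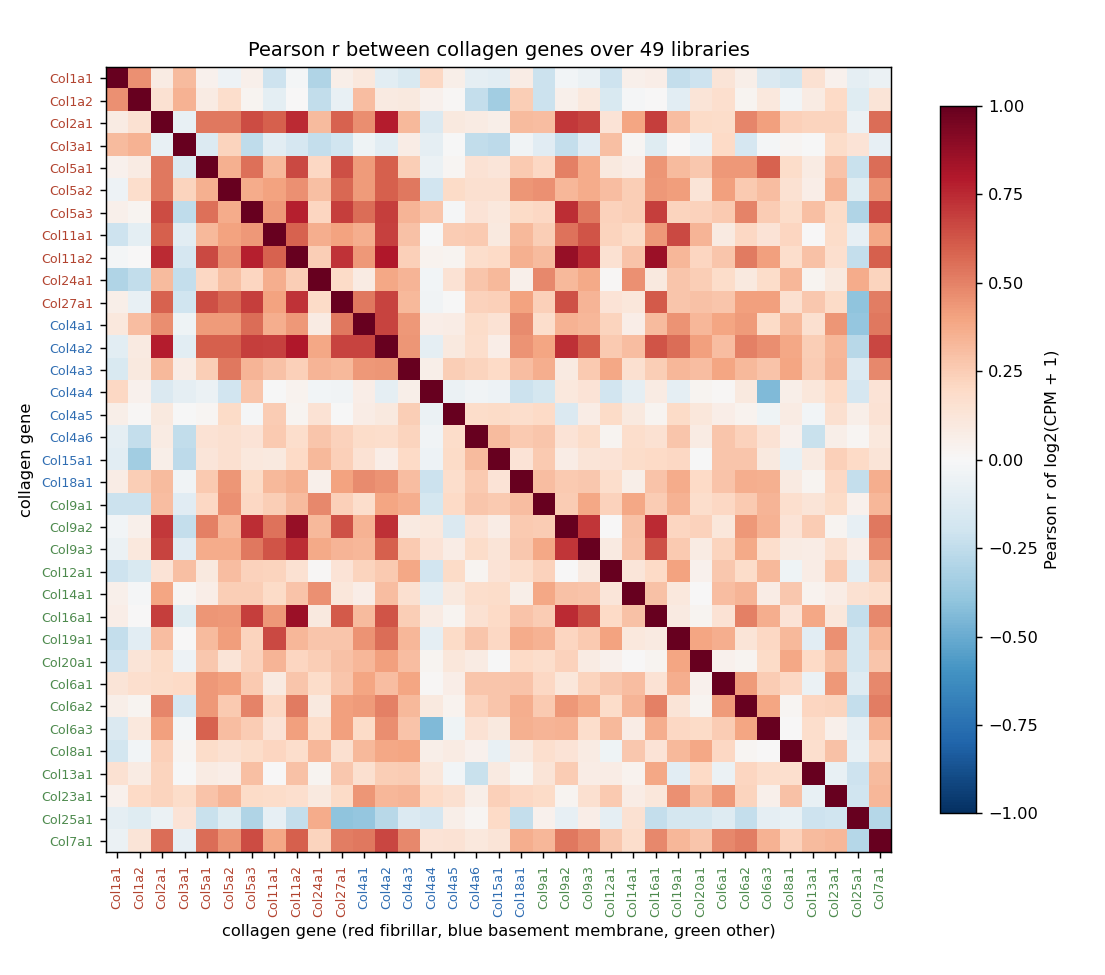
Pearson r of log2(CPM + 1) over the 49 libraries for each pair of the 35 collagen genes past the filter, red for positive and blue for negative values. Gene names are coloured by class; the block of high values links Col2a1, Col5a3, Col11a2, Col4a2, Col9a2, Col9a3 and Col16a1, while the rows of Col1a1, Col3a1 and Col25a1 are near 0 or below with most genes.

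Named pairs were then tested, 12 of chains of 1 collagen type and 9 set beside them (two-sided permutation tests with 100000 permutations, adjusted over the 21 pairs). The 9 joined chains of different types, except Col4a1 with Col4a5, both of type IV (r = 0.07, permutation adjusted p = 0.645). For Pearson's r, 9 of 21 pairs passed an adjusted p of 0.05, which were 8 of the 12 and 1 of the 9, and for Spearman's rho 3 did, all of 1 type. The difference between these shares was not tested, and the choice of pairs does not allow a comparison of both groups. Most of the 9 held Col1a1, Col1a2 or Col3a1, which were near 0 with most members. The pairs of different types with the highest r, such as Col9a2 with Col11a2, were not among the 21. Of the 21 pairs, the type IX chains Col9a2 and Col9a3 had the highest r, with r = 0.71 and rho = 0.69 (permutation p = 1e-05, the smallest these permutations can give, for both; adjusted p = 0.000105 and 0.00021). Their r was 0.58 with the 2 libraries farthest from the Col9a2 median removed, and 0.90, 0.82, 0.36, 0.83 and 0.94 in series B to F. Without rat 63 it was 0.63 (permutation adjusted p = 0.000105). The type XI chains Col11a1 and Col11a2 had r = 0.59 and rho = 0.56 (permutation p = 2e-05 and 7e-05; adjusted p = 0.00014 and 0.000735). Their r was 0.48 without the 2 farthest libraries and 0.70, 0.64, 0.66, -0.41 and 0.65 in series B to F, so series E did not share the sign. These 2 pairs kept an adjusted p under 0.05 under all 8 alternatives run within the 49 libraries.

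Col4a1 and Col4a2, which start 76 bases apart, had r = 0.68 and rho = 0.50 (permutation p = 1e-05 and 0.00027; adjusted p = 0.000105 and 0.00189). Their r fell to 0.48 without the 2 farthest libraries and was 0.60 without rat 63. Within series it was 0.71 in B, 0.94 in C, 0.11 in D, 0.49 in E and -0.20 in F, so the relation did not hold in every series. With the first 2 principal components as covariates it was 0.15 (permutation adjusted p = 0.49). The other head-to-head pairs did not pass: Col4a3 with Col4a4 had r = 0.06 and rho = 0.16 (permutation p = 0.683 and 0.273; adjusted p = 0.683 and 0.409), with 0.24 without the 2 farthest libraries and -0.20, 0.08, 0.35, 0.04 and 0.12 in the series. Col4a5 with Col4a6 had r = 0.19 and rho = 0.17 (permutation p = 0.199 and 0.239; adjusted p = 0.279 and 0.386), with 0.13 without the 2 farthest libraries and 0.39, 0.29, 0.27, 0.85 and 0.06 in the series. Counts of Col4a4 and Col4a6 were low, with a median of 19 and 24.

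Col1a1 and Col1a2, the 2 chains of type I, had r = 0.46 and rho = 0.33 (permutation p = 0.00095 and 0.0214; adjusted p = 0.00499 and 0.105). Their r was 0.33 without the 2 farthest libraries, where it no longer passed (permutation adjusted p = 0.0638), and 0.30, 0.47, 0.35, -0.41 and 0.86 in series B to F. Col1a2 with Col3a1 had r = 0.35 and rho = 0.30 (permutation p = 0.0144 and 0.0375; adjusted p = 0.0336 and 0.105), 0.38 without the 2 farthest libraries, 0.32 without rat 63 (permutation adjusted p = 0.0604), 0.33 without rat 62 (permutation adjusted p = 0.056) and 0.08, 0.34, -0.01, 0.12 and 0.53 in the series. The type VI pair Col6a1 and Col6a2 had r = 0.42 (rho = 0.26; permutation p = 0.00245 and 0.0675; adjusted p = 0.0103 and 0.148), 0.35 without the 2 farthest libraries and -0.44, 0.81, 0.10, 0.45 and 0.11 in the series. The remaining 3 pairs past the threshold were Col6a2 with Col6a3, Col9a1 with Col9a3 and Col5a1 with Col5a2, with r of 0.40, 0.39 and 0.36. Without rat 63 the last 2 had r of 0.26 and 0.25 and did not pass (permutation adjusted p = 0.142 for both). Without rat 62 Col5a1 with Col5a2 had r = 0.31 and did not pass (permutation adjusted p = 0.0664), and without the 2 farthest libraries r of the 3 pairs was 0.30, 0.12 and 0.16.

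Each gene was then fitted with limma on 6 marker scores, the mean z-scored log2 level of a cell type's markers, none of which is a collagen. Slopes are in log2 units per SD of the score, with SE, and p-values were adjusted over all tested genes. In bulk tissue, fewer cells of a type and less RNA per cell cannot be told apart. On the endothelial score 3 of 35 members rose and 0 fell, where 9.17% of all genes rose and 2.95% fell. On the mural score 2 rose and 0 fell, against 4.72% and 1.06%. On the fibroblast score 1 rose and 2 fell, against 8.23% and 6.93%. Shares of the members were thus close to or below those of all genes. Without rat 62 the called members were 1, 0 and 3 of 35, where 6.74%, 1.95% and 14.9% of all genes passed (on the mural score 8 of 35 at an unadjusted p under 0.05, against 17.6% of all genes).

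**Figure D4:**
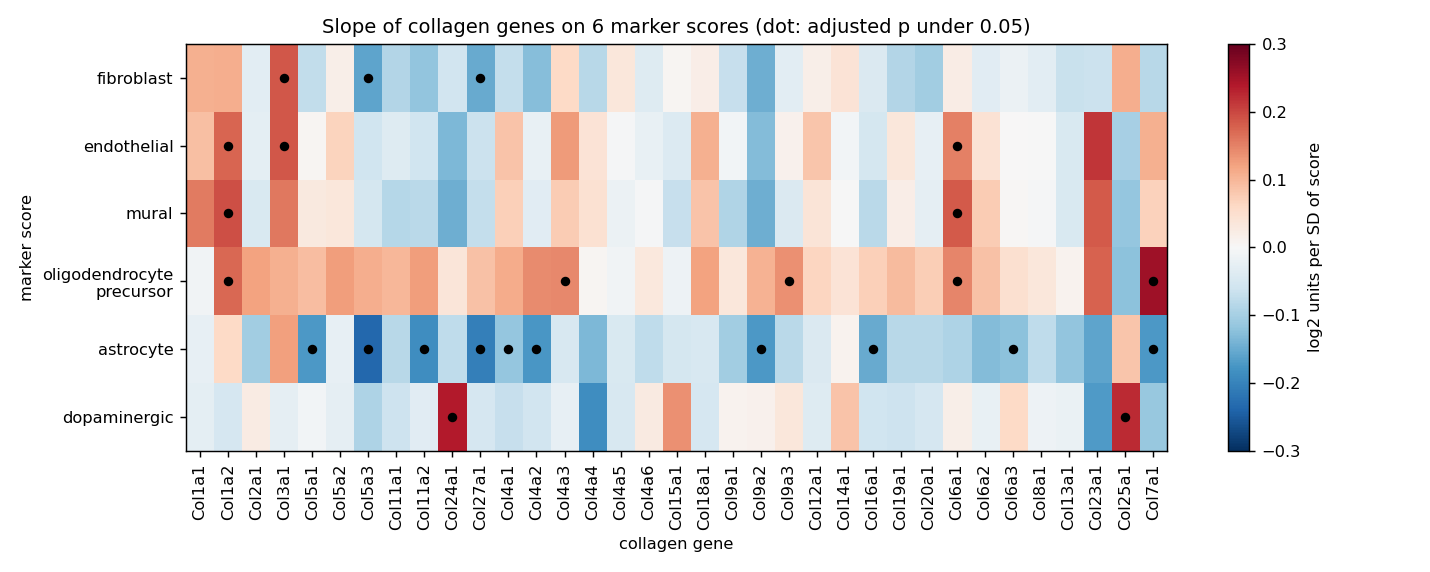
Slope of each of the 35 collagen genes past the filter on 6 marker scores, in log2 units per SD of the score over the 49 libraries, red for positive and blue for negative. Black dots mark an adjusted p under 0.05 (limma): 10 members fell on the astrocyte score, and Col24a1 and Col25a1 rose on the dopaminergic score.

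The members that rose with vascular or fibroblast markers were Col1a2, Col3a1 and Col6a1. Col1a1, Col6a2 and Col6a3, other chains of types I and VI, did not pass on the endothelial, mural or fibroblast score. Col1a2 rose by 0.19 ± 0.05 on the mural score (adjusted p = 0.016, limma) and by 0.17 ± 0.05 on the endothelial score (adjusted p = 0.0221). Col3a1 rose by 0.19 ± 0.05 on the endothelial score (adjusted p = 0.0196) and by 0.19 ± 0.05 on the fibroblast score (adjusted p = 0.0186). Col6a1 rose by 0.18 ± 0.05 on the mural (adjusted p = 0.0133) and 0.15 ± 0.05 on the endothelial score (adjusted p = 0.0335). Col6a1 on the mural score was positive in 5 of 5 series, but near 0 in some (0.05, 0.31, 0.23, 0.05 and 0.004 in B to F). Col1a2 was positive in 4 of 5 (0.47, 0.29, 0.07, -0.06 and 0.13). On the endothelial score Col1a2 was positive in 3 of 5 series (0.63, 0.10, 0.12, -0.04 and -0.01). Col3a1 and Col6a1 were positive in 4 of 5 on that score, as was Col3a1 on the fibroblast score. With the series as covariate, Col6a1 kept its mural slope (0.20; adjusted p = 0.0396), while the other 5 of these slopes stayed positive and did not pass. In that fit the members past the threshold on the endothelial score were Col4a3 (0.18 ± 0.06, adjusted p = 0.0312) and Col23a1 (0.36 ± 0.10, adjusted p = 0.0166). There 7 of 35 members were at an unadjusted p under 0.05, against 27.7% of all genes. Without rat 62, Col3a1 passed on the endothelial (0.18, adjusted p = 0.0416) and fibroblast scores (0.20, adjusted p = 0.0105), and Col1a2 and Col6a1 did not pass on the endothelial (0.15 and 0.10) or mural scores (0.18 and 0.14; adjusted p = 0.055 and 0.0881). With the 2 libraries most distant in mural score (rats 67 and 62) left out, those of Col1a2 and Col6a1 were 0.20 (adjusted p = 0.0557) and 0.08 (adjusted p = 0.386).

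On the endothelial, mural and fibroblast scores 0 of 8 basement membrane members passed, and the difference from the other chains was not tested. On the endothelial score Col4a3 had the largest slope of the 8, at 0.13 ± 0.05 (adjusted p = 0.0553, limma), Col18a1 had a slope of 0.11 ± 0.04 (adjusted p = 0.107, limma), Col4a1 one of 0.08 ± 0.04 and Col4a5 one of -0.00 ± 0.04. At an unadjusted p under 0.05 there were 2 of 8 on the endothelial (Col18a1 and Col4a3), 0 on the mural and 1 on the fibroblast score (Col4a2), against 28.1%, 21.6% and 31.3% of all genes. With the other 2 of these 3 scores as covariates 0 genes of all tested passed on the endothelial or mural score (7 and 4 of 35 members at an unadjusted p under 0.05, against 15.5% and 8.27% of all genes). On the fibroblast score Col5a3 fell by 0.16 ± 0.05 (adjusted p = 0.0355) and Col27a1 by 0.15 ± 0.05 (adjusted p = 0.0438), and neither passed without rat 63. Without rat 62 Col27a1 did not pass (-0.14, adjusted p = 0.0614). With size factors in place of library totals, 2 rose and 1 fell on the endothelial score (7 of 35 members at an unadjusted p under 0.05, against 22.5% of all genes).

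On the score of oligodendrocyte precursors 5 members rose and 0 fell, where 9.44% of all genes rose and 1.58% fell. They were Col7a1 (0.26 ± 0.06, adjusted p = 0.00381, limma; positive in 5 of 5 series), Col1a2 (0.17 ± 0.05), Col6a1 (0.15 ± 0.05), Col4a3 (0.14 ± 0.04) and Col9a3 (0.14 ± 0.05). Without rat 63 the count was 8, where 12.6% of all genes passed, and without rat 62 it was 2 (Col7a1 and Col9a3), where 5.32% did. With size factors in place of library totals it was 0, where 0.272% of all genes passed (5 members at an unadjusted p under 0.05, against 11.8% of all genes).

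On the astrocyte score 10 members fell and 0 rose, where 15.8% of all genes fell and 16.3% rose. The largest slopes were those of Col5a3 (-0.24 ± 0.05, adjusted p = 0.000178, limma), Col27a1 (-0.20 ± 0.05), Col11a2 (-0.19 ± 0.05), Col4a2 (-0.17 ± 0.05) and Col9a2 (-0.17 ± 0.05). Col5a1, Col7a1, Col16a1, Col6a3 and Col4a1 were the others, at -0.17 to -0.12. None of the 10 was negative in every series. Col5a3, Col11a2 and Col9a2 were negative in 4 of 5 series, Col27a1 and Col7a1 in 3. Col4a2 was negative in 2 (-0.13, -0.37, 0.09, 0.07 and 0.22 in B to F). Rat 63 had both the lowest astrocyte score and the highest collagen sums. Without it 4 members fell, Col5a3 (-0.17), Col27a1 (-0.15), Col5a1 (-0.14) and Col11a2 (-0.10), and with the 2 most distant libraries (rats 63 and 45) left out 1 did, where 31.4% and 23.1% of all genes passed in either direction. Without rat 62, 7 members fell (Col7a1, Col6a3 and Col4a1 did not pass) and Col3a1 rose (0.15 ± 0.06, adjusted p = 0.0319), where 33% passed. With size factors 15 members fell, where 37.6% passed.

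Col25a1 and Col24a1 were the members that rose with dopaminergic markers, where 2.86% of all genes rose and 4.88% fell, and 0 members fell. Summed dopaminergic markers ranged from 320 to 2129 CPM between libraries. Col25a1 ranged from 18.3 to 59.9 CPM and rose by 0.22 ± 0.04 log2 units per SD of the score (adjusted p = 5.97e-05, limma). Its slope was positive in 5 of 5 series (0.13, 0.30, 0.24, 0.13 and 0.29 in B to F). It kept an adjusted p under 0.05 in all 11 alternatives run within the 49 libraries, with slopes of 0.20 to 0.25.

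Col24a1, whose start region with a GC box is printed above, ranged from 1.71 to 16.4 CPM and rose by 0.24 ± 0.07 (adjusted p = 0.0212, limma). Its slope was positive in 5 of 5 series (0.39, 0.16, 0.33, 0.14 and 0.28). The library with the highest dopaminergic score, rat 40 at 3.40 SD, also had the highest Col24a1. With the 2 libraries most distant in score (rats 40 and 87) left out the slope was 0.16 (adjusted p = 0.118). No fibrillar member besides Col24a1 and no basement membrane member passed on this score. At an unadjusted p under 0.05 there were 1 of 11 fibrillar members, Col24a1 itself, and 2 of 8 basement membrane members, against 24.9% of all genes.

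**Figure D5:**
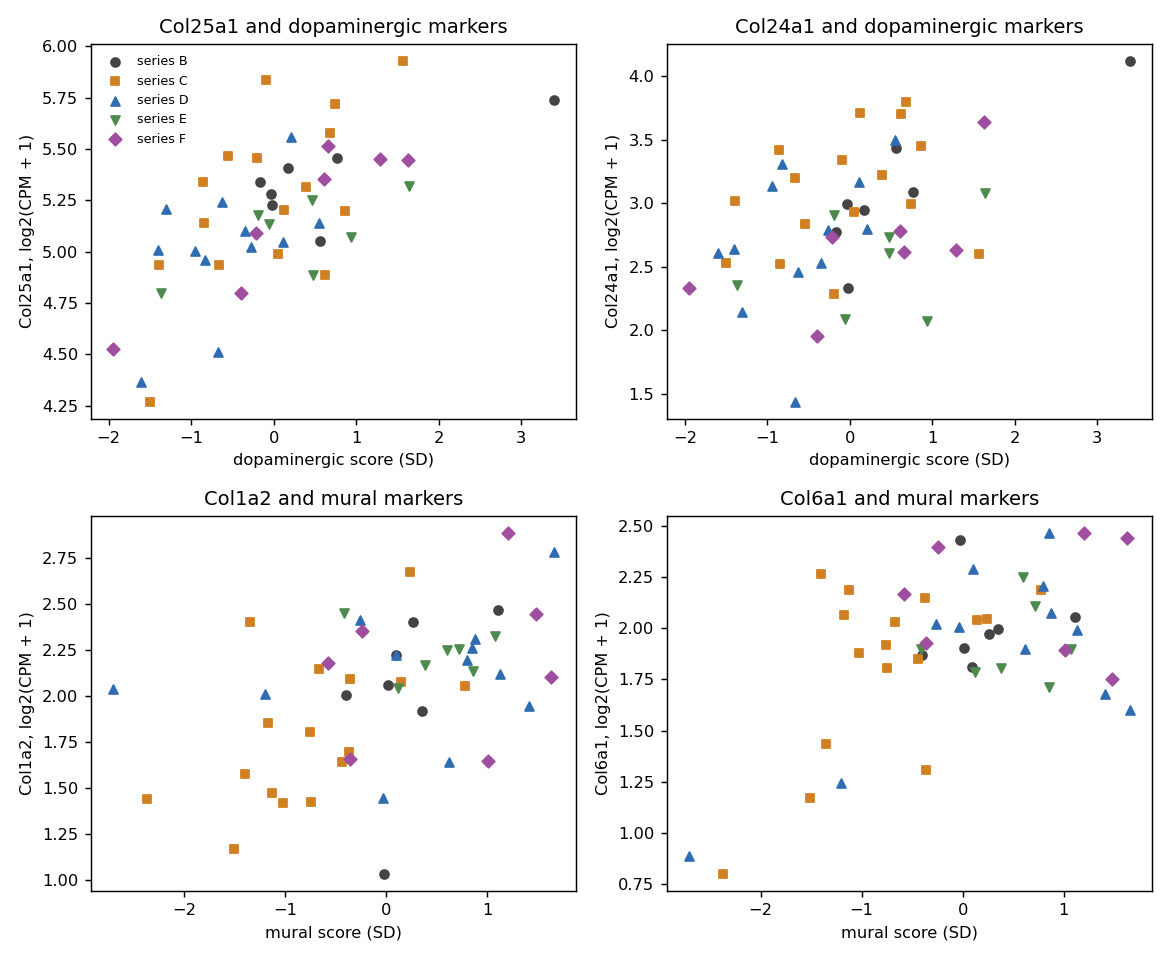
Level of Col25a1 and Col24a1 against the dopaminergic marker score and of Col1a2 and Col6a1 against the mural marker score in the 49 libraries, as log2(CPM + 1) against SD of the score, with symbols for series B to F. Slopes are 0.22, 0.24, 0.19 and 0.18 log2 units per SD; the point at 3.40 SD is rat 40.

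Genes that make, bind or degrade collagen were taken from 5 lists. The 19 enzymes and chaperones of collagen synthesis all passed the filter. On the endothelial score 2 of 19 rose and 0 fell, where 9.17% of all genes rose and 2.95% fell. The 2 were P4hb, a subunit of prolyl 4-hydroxylase (0.14 ± 0.03, adjusted p = 0.00448, limma), and Ppib, a folding catalyst (0.09 ± 0.03). P4hb also rose on the astrocyte score (0.12), where 16.3% of all genes rose, and Ppib did not pass there. On the fibroblast score 0 of 19 passed, where 8.23% of all genes rose and 6.93% fell (3 at an unadjusted p under 0.05, against 31.3% of all genes). Of 11 processing and crosslinking genes past the filter, 0 rose and 1 fell on the fibroblast score, against the same 8.23% and 6.93%. The 1 was the crosslinking enzyme Loxl2 (-0.15 ± 0.04, adjusted p = 0.0147, limma). Loxl2 also fell on the astrocyte score (-0.18), where 15.8% of all genes fell. On the endothelial score 0 of 11 passed, with or without adjustment, where 28.1% of all genes were under 0.05 unadjusted. On the dopaminergic score 0 synthesis, processing, receptor or degradation genes passed in limma (4 of 19, 0 of 11, 2 of 6 and 1 of 9 at an unadjusted p under 0.05), where 2.86% of all genes rose and 4.88% fell and 24.9% were under 0.05 unadjusted.

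For the calls below, 9.17% of all genes rose and 2.95% fell on the endothelial score, and 8.23% and 6.93% on the fibroblast score. Of 6 collagen receptors past the filter, Itgb1, the shared integrin beta chain, rose with the endothelial score (0.20 ± 0.03, adjusted p = 4.06e-05, limma). Lair1, an inhibitory receptor of immune cells, fell with the fibroblast score (-0.17 ± 0.06, adjusted p = 0.0338). Of 15 laminins, nidogens and other basement membrane partners, Nid1 rose with the fibroblast score (0.12 ± 0.03, adjusted p = 0.00981) and Lamb2 with the endothelial score (0.13 ± 0.04, adjusted p = 0.0374). Of 9 genes of degradation and its inhibitors, Timp3 rose on both (0.10 ± 0.03 and 0.11 ± 0.03). These calls were not particular to the 2 scores. On the astrocyte score, where 16.3% of all genes rose and 15.8% fell, Itgb1 (0.11), Nid1 (0.11) and Timp3 (0.10) also rose and Lair1 (-0.23) fell. On the score of oligodendrocyte precursors, where 9.44% of all genes rose, Itgb1 and Lamb2 rose (0.15 for both). On the dopaminergic score, Lamb3 rose by 0.36 ± 0.05 (adjusted p = 4.59e-07) and Lama2 fell by 0.11 ± 0.03 (adjusted p = 0.0327); these 2 were named after their values were seen.

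Between series B to F, 0 of 35 collagen genes passed limma's F test at an adjusted p under 0.05, where 1.71% of all tested genes did. At an unadjusted p under 0.05 there were 5 members, Col4a4, Col6a3, Col9a2, Col24a1 and Col3a1, or 5 of 35, against 14.8% of all genes. Col4a4 had the smallest p (0.00759, limma; adjusted p = 0.146), with medians of 1.71, 1.28, 1.63, 0.67 and 0.64 CPM in series B to F, and the ranges overlapped.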

How the data were processed

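Polyadenylated RNA of the RMTg was measured in 92 rats of 1 group. The deposited table holds log2 values per gene, which the authors made with kallisto 0.48, per the submitters' processing notes. From the values, each is log2 of an estimated count plus 1 (of non-zero counts under 20 so obtained, 49.98% lay within 0.01 of a whole number). The genome build is not given in the sources used here.

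Values were back-transformed as 2 to the power of the value minus 1, scaled to CPM with the library total and taken as log2(CPM + 1). Genes with at least 1 CPM in at least 20% of the 49 libraries were tested (18749). Slopes and series were tested with limma 3.58.1 in R 4.3.3, moderated with a mean trend, with Benjamini-Hochberg adjustment over all tested genes at 0.05. A score's own markers were left out of its counts. Series were parted at identifier gaps over 50000. Slope, series and pair procedures were tested on simulated data. All collagen rows could be named, and of each partner list up to 3 members with the largest slope past the threshold on the fibroblast and on the endothelial score. The members, lists and limits on libraries were chosen with earlier results of these data known. Alternatives changed the pseudocount, scaling, filter, libraries and covariates. Precision of low genes is limited by counts, and transcript lengths were not used here.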

Additional observations from a re-analysis of the deposited data

Results flagged for a closer look

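Libraries outside the comparisons also held collagen counts. In the 32 libraries where LOC120093067 and Zfp532 took at least 19.8% of the counts, 40 of the 44 collagen genes were above 3 counts in at least 1 library; the 4 that were not were Col6a5, Col10a1, Col26a1 and Col28a1. Median levels there were 25.4 CPM for Col25a1, 21.8 CPM for Col11a2 and 3.53 CPM for Col4a1, with totals of 2.29 to 13.7 M counts and with the dominant features in the total. In the 11 libraries where Nif3l1 took at least 28.8% of the counts, 8 collagen genes were above 3 counts in at least 1 library. Of these, Col8a1, a chain of the network-forming type VIII, had a median of 1831 CPM (1831.41; range 1269 to 2644), above its highest value in the 49 libraries (2.93 CPM, median 1.68 CPM), and was above 3 counts in all 11. Col11a2 was next by number of libraries, above 3 counts in 5 of 11 and at most 1.07 CPM. No test was made between these kinds of library.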

How the results depend on the processing

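The alternatives were mostly planned; leaving out rat 63 or rat 62 and using the first 2 principal components as covariates were chosen after seeing the data. No paired analysis was possible because all libraries belong to 1 group. Over all 92 libraries all 35 members passed on each of the 6 scores (94.5% to 97.6% of all genes), 31 between series (73.9% of all genes), and all 21 pairs. There the slopes of Col27a1 and Col5a3 on the fibroblast score turned to 1.19 and 1.66, and on the astrocyte score Col5a1 turned to 0.96, Col27a1 to 1.21, Col9a2 to 1.36, Col16a1 to 1.59, Col5a3 to 1.47, Col7a1 to 0.42, Col6a3 to 0.25, Col4a2 to 1.28, Col4a1 to 1.16 and Col11a2 to 1.69. With the 2 components, Col5a3 on the fibroblast score turned to 0.013 and, on the astrocyte score, Col9a2 to 0.0018 and Col4a1 to 0.012; the members called (percent of all genes called in brackets, here and below) were then 0 for fibroblast (0), 1 for endothelial (2.66%), 4 for mural (4.60%), 0 for oligodendrocyte precursor (0.064%) and 0 for astrocyte scores (0.208%). On the fibroblast score, with 3 members called (15.2%), the count was 1 with a pseudocount of 0.1 (13.5%), with no filter (6.03%), with Xist and Ddx3y as covariates (7.08%) or without rat 63 (12.8%), 6 with size factors (20.9%) or without corrected identifiers (16.5%), and 0 with the series as covariate (4.29%). On the endothelial score, also with 3 (12.1%), it was 5 with a pseudocount of 0.1 (12.7%), 1 without the 2 farthest libraries (11.8%) or without rat 62 (6.74%) and 0 with the other scores as covariates (0). On the mural score, with 2 (5.79%), it was 1 with size factors (2.04%) or the series as covariate (2.35%), and 0 without the 2 farthest libraries (0.571%), without rat 62 (1.95%) or with the other scores as covariates (0). On the oligodendrocyte precursor score, with 5 (11%), it was 0 with size factors (0.272%), 3 without corrected identifiers (9.59%), 2 without rat 62 (5.32%), 1 with no filter (4.13%), 8 without rat 63 (12.6%) and 10 with the series as covariate (14%). On the astrocyte score, with 10 (32.1%), it was 4 without rat 63 (31.4%) and 1 without the 2 farthest libraries (23.1%), and on the dopaminergic score, with 2 (7.74%), it was 1 without the 2 farthest libraries (10.6%). The cause of each change was not tested.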
